A study of Saccharomyces cerevisiae with 51 samples.

Results

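The mitochondrial ribosomal protein genes of budding yeast are the nuclear genes that encode the protein subunits of the ribosome inside mitochondria. They were taken as every gene whose deposited symbol is MRPL, MRPS, MRP, RSM or IMG followed by digits only. This rule uses names and no measured value, and it found 68 genes among 6840 in the table of the metabolic cycle and 6821 in the table of the rapamycin experiment. Of the 68, 39 belong to the large subunit and 28 to the small subunit, and 40 have a counterpart in the bacterial ribosome while 25 are known only from mitochondria. The class of MRP51 and RSM22, both of the small subunit, was left unassigned. The remaining gene, MRP8, fits the name rule only: its deposited description gives it an unknown function, and it was assigned to neither subunit. All 68 symbols matched the RefSeq annotation (assembly R64), which places them on 14 chromosomes. Only MRPS12 (chromosome XIV, 694361 to 694822, minus strand) and RSM19 (chromosome XIV, 695052 to 695327, minus strand) are next to each other.

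The mitochondrial ribosome translates the few proteins that the mitochondrial genome encodes, most of them subunits of the respiratory chain and of the ATP synthase. Nearly all of its proteins are made on cytosolic ribosomes and imported, so its assembly joins products of the nuclear and the mitochondrial genome. Yeast grown in continuous culture can pass together through cycles of oxygen consumption, in which transcripts of growth, of mitochondrial biogenesis and of quiescence follow one another.

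RNA was sequenced from the laboratory strain CEN.PK in continuous culture at 6 phases of the metabolic cycle, named RC start, RC mid, OX mid, OX late, RB start and RB late (RC, reductive charging; OX, oxidative; RB, reductive building). The 6 phases were taken from wild type and from a strain of this background that lacks ARP5 (arp5∆), a gene for a subunit of the INO80 chromatin remodeler. A separate experiment used unsynchronized BY4741 in mid-log phase, where the control and the cultures given 30 nM rapamycin for 45 or 90 min had 2 biological replicates each; rapamycin inhibits the growth kinase TORC1. ATAC-seq libraries of the cycle, 12 of each genotype, report how open the DNA is to a transposase. The 24 RNA libraries of the cycle are pairs A and B of each genotype and phase, prepared separately from RNA of 1 culture. Adjusted p-values within the cycle therefore measure technical spread, and each genotype rests on 1 culture. The treatment text of the rapamycin control also mentions rapamycin, and its title, which says control, was followed.

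The low values of each table gave 5.00 to 9.73 M reads on genes per cycle library and 9.41 to 13.55 M per rapamycin library. A member had at least 108 reads in every cycle library and at least 10 in every rapamycin library. ARP5 itself had 46.4 to 55.7 FPKM (mapped fragments scaled by gene length and library depth) in the 12 wild-type libraries and was listed at 0 in 11 of 12 arp5∆ libraries, with 0.0649 FPKM in the other. All 68 members passed the filter of a mean of 1 FPKM in both tables.

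In wild type the members rose and fell together. Their summed level was lowest at OX mid, with 7446 FPKM in library A and 7526 in B, and highest at RB late, with 29165 and 28415. At the phases between, it was 20986 and 21244 at OX late, 22787 and 21687 at RB start, 21017 and 20726 at RC start, and 9001 and 9182 at RC mid. The high phases ran from OX late through the building phase to RC start, and the low ones were RC mid and OX mid, with no overlap between them. As a share of all FPKM in a library, the members held 0.49% at the least and 2.24% at the most. In these bulk samples, fewer cells that express the genes and less RNA per cell cannot be told apart.

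**Figure D1:**
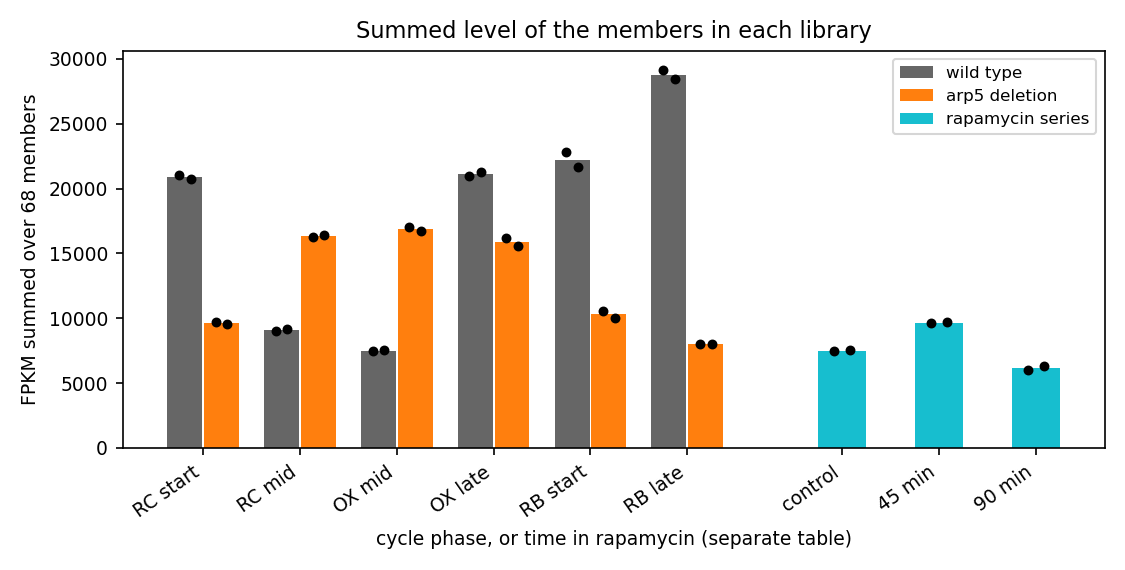
Summed FPKM of the 68 members for each cycle phase in wild type and arp5∆ and for the rapamycin control, 45 min and 90 min; bars are means and each point is a library. The 2 libraries of a group lie close together, wild type is highest at RB late (29165 and 28415) and arp5∆ is highest at OX mid (17031 and 16703).

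All 68 members passed the test for cycling in wild type, beside 62.1% of the 6510 genes tested (limma F test over 6 phases; a call required a Benjamini-Hochberg adjusted p under 0.05 and phase means that span 1 or more on the log2(FPKM + 1) scale). The range from lowest to highest phase had a median of 2.07 on the log2 scale over members, against 1.34 over all genes tested, and went from 1.31 to 2.90. The largest adjusted p among them was 3.05e-10. RB late was the highest phase for 61 members. The lowest phase was RC mid for 36 members and OX mid for 32, and both of these were the lowest phases for 65.

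Most of the course lay in a pair of steps, chosen for a test after the values were seen. From OX mid to OX late 67 members rose, beside 12.3% of all genes, and the median member changed by 1.47 on the log2 scale. RSM22 was the exception, with a log2 change of 0.66 ± 0.07 (SE). From RC start to RC mid 58 members fell, beside 5.75% of all genes, and the median member changed by -1.23. The other 10 had log2 changes between -0.31 (RSM22) and -1.0 (RSM24).

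The genes of cytosolic ribosomal proteins, which build the ribosome outside mitochondria, had another course over the same libraries. Of 138 of them, 137 were highest at OX mid, where the mitochondrial set was at or near its lowest. From OX mid to OX late 7 of the 138 fell, beside 14.7% of all genes, and the median log2 change of the 138 was -0.62. With adjusted p alone and no minimum change, 135 were lower at this step, beside 40.5% of all genes. From RC start to RC mid 131 rose, beside 9.88% of all genes. The difference between the sets was not itself tested.

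**Figure D2:**
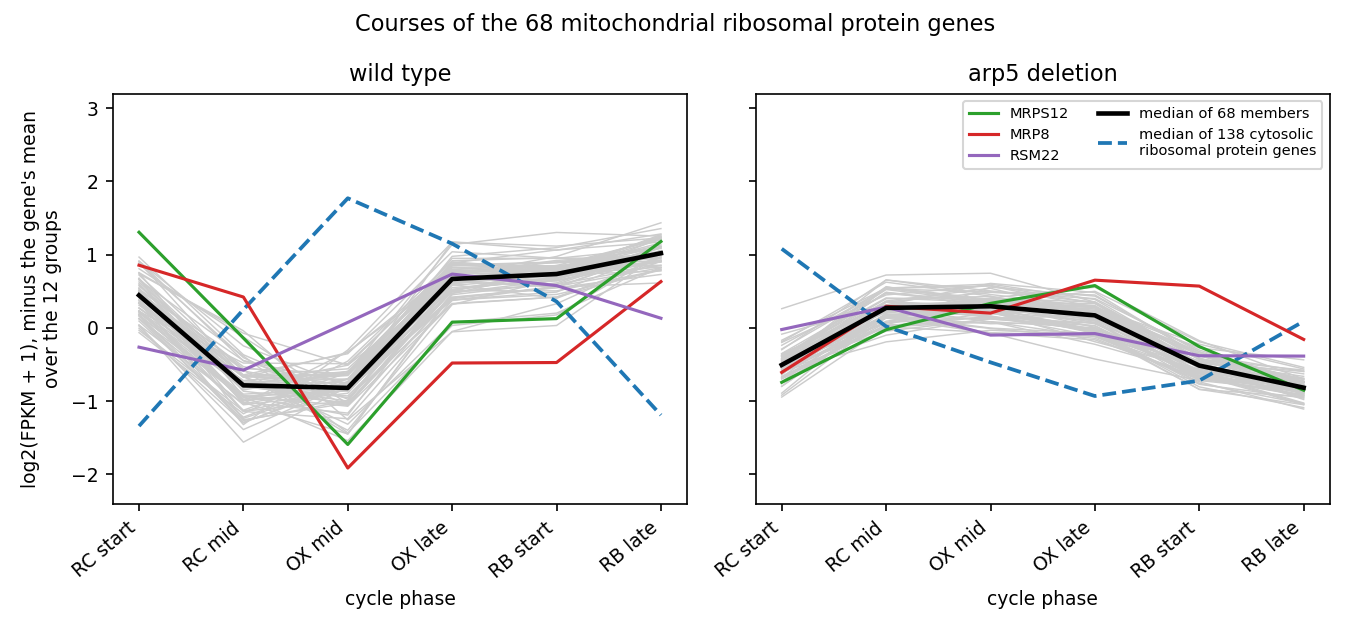
Mean log2(FPKM + 1) of libraries A and B at each phase, minus the gene's mean over the 12 groups, for each member (grey), the median member (black), MRPS12, MRP8 and RSM22 (colours) and the median of 138 cytosolic ribosomal protein genes (dashed). In wild type (left) the median member goes from -0.82 at OX mid to 1.02 at RB late, and in arp5∆ (right) from 0.29 at OX mid to -0.82 at RB late.

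The members resembled each other closely. Over the 12 wild-type libraries, 60 of 68 correlated with the median course of the others with a Pearson r of at least 0.9, and the median r was 0.98. In arp5∆ 65 of 68 reached 0.9. Each r rests on 12 libraries, in technical pairs at 6 phases, and all members share these libraries. The lowest in wild type were MRP8 with 0.417, RSM22 with 0.595, MRP20 with 0.719 and MRPS12 with 0.727. The median range in wild type was 2.10 on the log2 scale for the large subunit and 1.96 for the small one. It was 2.06 for members with a bacterial counterpart and 2.09 for members known only from mitochondria, without a test.

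Levels differed more than courses. Mean FPKM over the cycle ran from 37.8 to 860.0, with 64 members at 100 or more. The highest were MRPS12, MRP8 (673) and MRPL51 (450.0, on which an overlapping gene bears, as given further on), and the lowest were RSM22, MRPL4 (78.6) and RSM23 (90.5). MRPS12 encodes the counterpart of a bacterial protein at the decoding centre, and MRPL4 encodes a protein near the exit of the peptide tunnel. Shorter genes had higher levels per length, with a Pearson r of -0.64 and a Spearman rho of -0.66 between coding length and mean FPKM (both log2, n = 68 genes).

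Among small subunit members with a bacterial counterpart, MRPS12 had the widest range in wild type. It had 246 and 247 FPKM at OX mid, 761 and 813 at OX late, 838 and 789 at RB start, 1732 and 1646 at RB late, 1873 and 1813 at RC start, and 662 and 691 at RC mid. It was high in the 4 libraries of RB late and RC start, and its highest phase was RC start. Its range of 2.90 on the log2 scale passed the cycling test (limma, adjusted p = 5.97e-18). In arp5∆ it had 450.0 and 439 FPKM at RC start, 708 and 757 at RC mid, 930.0 and 949 at OX mid, 1142 and 1083 at OX late, 652 and 597 at RB start, and 414 and 411 at RB late. OX late was highest there, and the range was 1.43, the widest of any member in arp5∆ together with MRPL19 (1.43). RSM19, its neighbour on the chromosome and the counterpart of another bacterial small subunit protein, was highest at RB late, with 480.0 and 456 FPKM against 70.2 and 87.3 at OX mid. Its phase means spanned 2.56 on the log2 scale in wild type and 1.37 in arp5∆. RSM18, in turn, was among the narrowest in arp5∆, with 0.90, and had 1.78 in wild type.

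MRP2, another small subunit protein with a bacterial counterpart, peaked at RB start, with 410.0 and 406 FPKM there and 391 and 397 at RB late. These phases differed little, and its lowest was RC mid with 95.5 and 90.1. MRPS17 had 294 and 283 FPKM at RB late and 73.6 and 63.1 at RC mid in wild type, and kept one of the wider ranges in arp5∆, 1.40.

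RSM22, a small subunit protein that resembles a methyltransferase, had the lowest level and the narrowest range in both genotypes. In wild type it had 28.8 and 31.6 FPKM at RC start, 22.2 and 26.1 at RC mid, 38.7 and 38.1 at OX mid, 60.4 and 62.1 at OX late, 56.6 and 53.1 at RB start, and 39.1 and 40.9 at RB late. It was highest at OX late and already lower at RB late, where 61 other members were highest. Its range of 1.31 passed the cycling test in wild type (limma, adjusted p = 3.87e-11), and that of 0.67 in arp5∆ did not reach the minimum of 1.

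In the large subunit, MRPL23, the counterpart of a bacterial protein, had the widest range in wild type. It had 133 and 116 FPKM at OX mid and 759 and 783 at RB late, a range of 2.63 on the log2 scale. In arp5∆ its range was 1.08. The narrowest in wild type after RSM22 were MRPL16 (1.41), MRPL33 (1.47) and MRPL22 (1.57), all with bacterial counterparts. MRPL22, which lines the exit tunnel, had 92.9 and 101 FPKM at RC mid and 284 and 296 at RB late.

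A few large subunit members had another highest phase in wild type. MRPL15, known only from mitochondria, had 290.0 and 275 FPKM at RB start against 260.0 and 254 at RB late. MRP49, also known only from mitochondria, had 310.0 and 291 at OX late against 295 and 273 at RB late, so that its libraries overlapped between these phases. MRPL19, the counterpart of a bacterial protein of the stalk base, had 163 and 158 at OX late and 161 and 155 at RB late, which overlapped too.

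MRP8, the gene of unknown function, left the common course most. In wild type it had 158 and 161 FPKM at OX mid, 436 and 429 at OX late, 436 and 433 at RB start, 926 and 946 at RB late, 1087 and 1098 at RC start, and 802 and 815 at RC mid. It was high from RB late to RC mid. From RC start to RC mid its log2 change was -0.43, short of the minimum of 1 that 58 other members passed. In arp5∆ it had 409 and 383 FPKM at RC start, 738 and 743 at RC mid, 689 and 699 at OX mid, 954 and 943 at OX late, 925 and 869 at RB start, and 546 and 536 at RB late. Its phase means spanned 2.77 on the log2 scale in wild type and 1.26 in arp5∆.

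The members also differed in how they stood at RC start against OX late in wild type, the flanks of the high part of the cycle. The difference between these phases had a median of -0.28 on the log2 scale and was above 0 for 23 of 68 members. It ran from -1.0 (RSM22), -0.98 (MRPL15) and -0.83 (MRPL24) to 0.79 (MRP20, a protein at the tunnel exit), 1.23 (MRPS12) and 1.34 (MRP8). Its median was -0.18 for members with a bacterial counterpart and -0.46 for those known only from mitochondria, without a test. In arp5∆ the difference between OX late and RC mid, the flanks of the high part there, ordered the members alike, with a Pearson r of 0.85 and a Spearman rho of 0.82 (n = 68 genes, and r = 0.85 for 67 without MRP8). The arp5∆ phases were chosen after the courses were seen, and every gene of a genotype shares the same libraries.

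**Figure D3:**
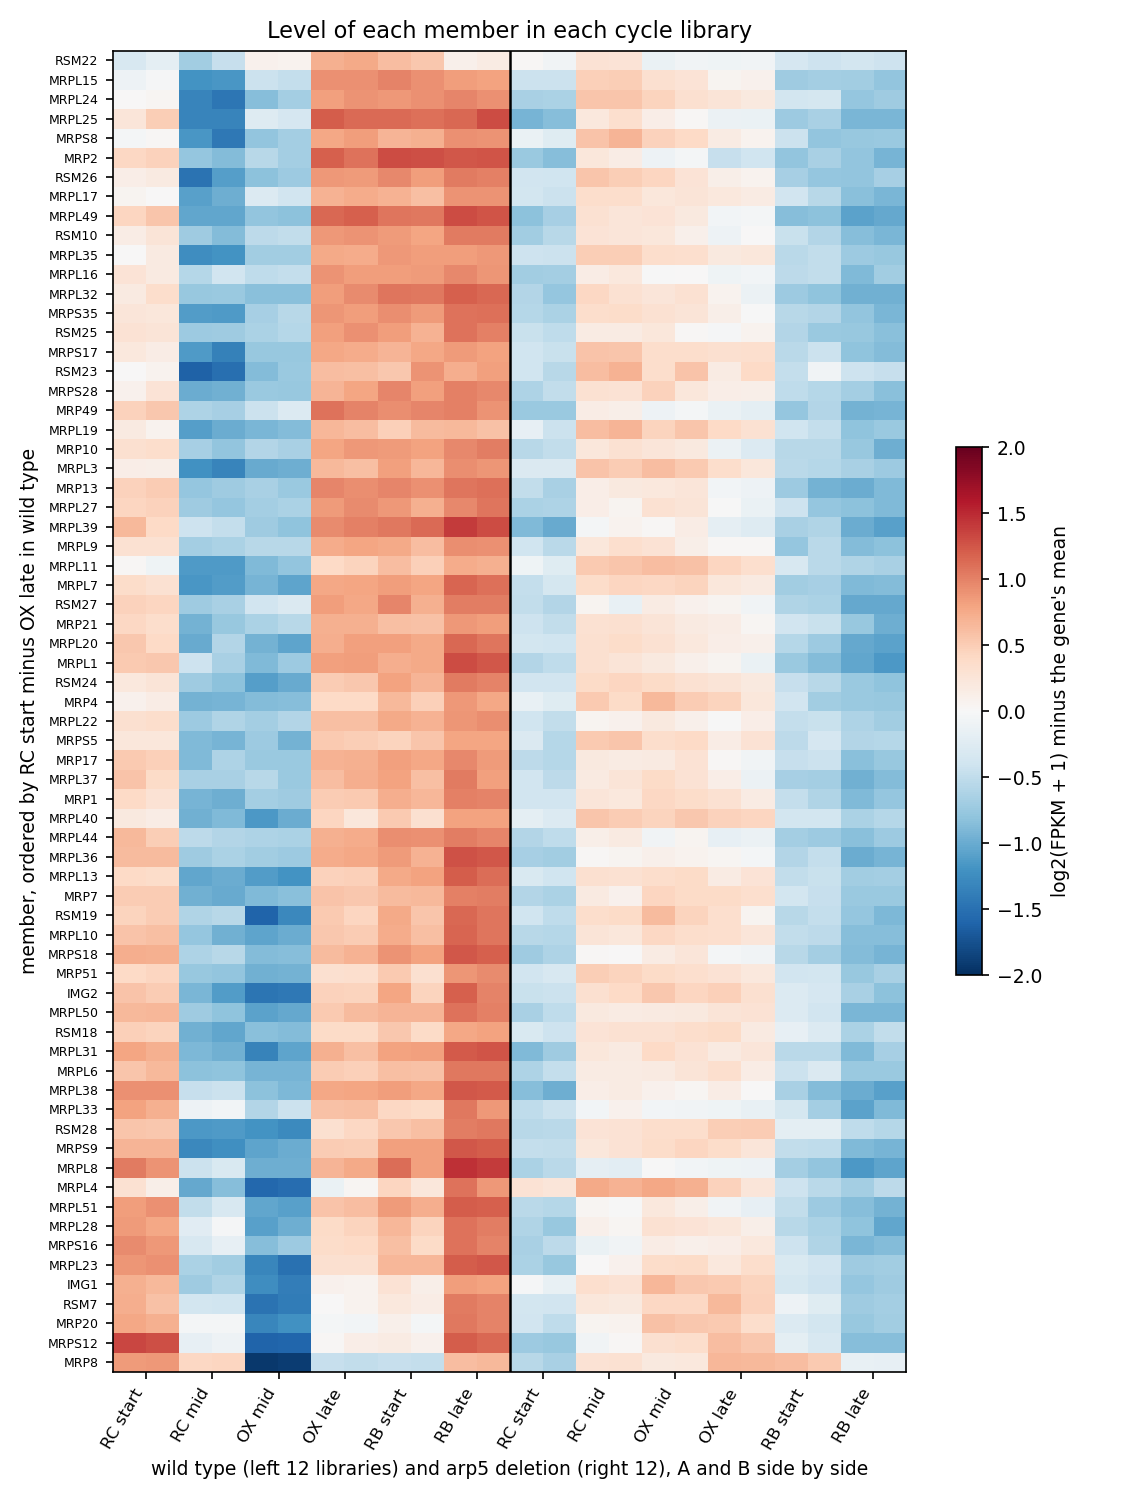
Log2(FPKM + 1) of each member in each of 24 cycle libraries, minus the gene's mean, red above and blue below, with members ordered by RC start minus OX late in wild type. In wild type, red covers OX late to RC start, and the lower rows (MRP20, MRPS12, MRP8) are redder at RC start than at OX late; in arp5∆ the pale red lies at RC mid to OX late.

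In arp5∆ the members still varied together, over a smaller range and at other labelled phases. Their summed level was 9722 and 9531 FPKM at RC start, 16290 and 16418 at RC mid, 17031 and 16703 at OX mid, 16193 and 15532 at OX late, 10532 and 10053 at RB start, and 8048 and 7997 at RB late. The sum was high at RC mid, OX mid and OX late and low elsewhere, without overlap. The cycling test called 60 of 68 members, beside 32.3% of all genes, with a median range of 1.18 on the log2 scale against 0.74 over all genes. The 8 others, MRPL16, MRPL22, MRPL33, MRPL44, MRPL6, RSM18, RSM22 and RSM25, had ranges from 0.67 to 0.99.

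The highest phase in arp5∆ was RC mid for 31 members, OX mid for 30 and OX late for 7, and the lowest was RB late for 64 and RC start for 4. In wild type the members were low at RC mid and OX mid, and high from OX late through RB late to RC start. When the median arp5∆ course was moved ahead by 2 or 3 phases, its Pearson r with the wild-type course was 0.80 or 0.79, against -0.78 at the labelled phases. Moved ahead by 1, 4 or 5 phases, it had an r of -0.11, 0.04 or -0.75. The moves of 2 and 3 were thus picked as the highest of all those tried. Each r rests on 6 points, and the labels do not say how the phases of the strains were matched.

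The difference between genotypes depended on the phase for all 68 members, beside 74.0% of all genes (limma F test of the interaction of genotype and phase, range of the difference at least 1). That range had a median of 3.19 on the log2 scale over members against 1.81 over all genes, and the largest adjusted p was 6.26e-11. All 68 members had a smaller range over the phases in arp5∆. This was not particular to them: 62.1% of all genes were called as cycling in wild type and 32.3% in arp5∆. The median range of the 138 cytosolic ribosomal protein genes was 3.18 on the log2 scale in wild type and 2.02 in arp5∆. The highest phase mean was lower in arp5∆ for 67 of 68, with a median log2 difference of -0.72. The lowest phase mean was lower for 25 of 68, with a median difference of 0.19. The shares of all genes with a smaller range, or with a lower highest or lowest phase, were not counted. MRPL19 alone had a higher highest phase in arp5∆, 163 against 160.0 FPKM, and the difference is within the spread of its libraries. Ranges in the 2 genotypes had a Pearson r of 0.51 over members.

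**Figure D4:**
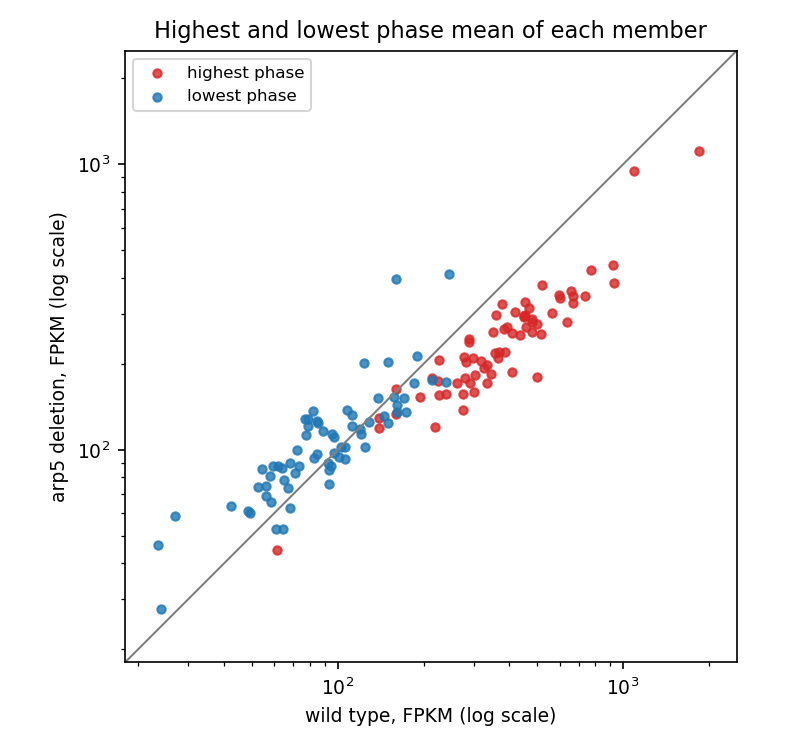
Highest (red) and lowest (blue) phase mean of each member in wild type (x axis) and arp5∆ (y axis), in FPKM on log scales, with the line of equal values. Of the 68 highest phase means, 67 lie below the line, and 25 of the 68 lowest phase means do.

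Phase by phase, many members were lower in arp5∆ at RB late, RB start and RC start, and higher at RC mid and OX mid. At RB late 66 fell and 0 rose, beside 10.9% of all genes that fell, and the median log2 difference was -1.82. MRPL8, the counterpart of a bacterial large subunit protein, had 512 and 489 FPKM at RB late in wild type and 82.4 and 87.8 in arp5∆, the largest difference of any member at that phase. Its log2 difference was -2.54 (limma, adjusted p = 1.79e-14). The 2 members not called at RB late were MRP8 (-0.79) and RSM22 (-0.52).

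At RB start 49 members fell, beside 8.69% of all genes, and 1 rose, with a median of -1.25. At RC start 30 fell and 0 rose, beside 16.9% of all genes that fell, with a median of -0.93. For MRPS12 the log2 difference at RC start was -2.05, and for MRPL4 it was 0.05.

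At RC mid 36 members rose and 0 fell in arp5∆, beside 9.92% of all genes that rose, with a median log2 difference of 1.08. RSM23, a small subunit protein known only from mitochondria, had 25.9 and 28.1 FPKM there in wild type and 125 and 133 in arp5∆. At OX mid 41 rose and 0 fell, beside 21.7% of all genes that rose, with a median of 1.12. MRPL4 had 23.1 and 23.9 FPKM at OX mid in wild type and 121 and 116 in arp5∆, a log2 difference of 2.29. At OX late 7 fell and 1 rose, beside 13.5% and 14.7% of all genes, with a median of -0.56. MRP8 was the member that rose at OX late (1.13) and at RB start (1.04).

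Over the whole cycle, with each phase as 1 unit, 0 of 68 members passed the test in arp5∆ against wild type (limma on 12 phase means, each of a pair of libraries, blocked by phase), beside 1.52% of all genes. An unadjusted p under 0.05 was found for 0 members, beside 15.6% of all genes. The median log2 difference was -0.34, with 61 members below 0, and it was -0.08 without RB late and -0.67 without RC mid or without OX mid. The mean over phases was 295 ± 152 FPKM (SD, n = 6 phases) for MRPL8 in wild type and 139 ± 38.3 in arp5∆, a log2 difference of -0.92 ± 0.47 (SE). MRPL39 (-0.91) and MRP2 (-0.90) followed. At the other end were MRPL4 with 0.34 ± 0.52, MRP8 with 0.32 ± 0.50 and MRPL11 with 0.10 ± 0.45. Without OX mid these turned to -0.05, -0.04 and -0.16, and MRPL11 was at -0.21 without RC mid. The smallest adjusted p of a member was 0.392.

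In rapamycin few members passed the test at either time, and most were lower at 90 min than at 45 min. Their summed level was 7454 and 7548 FPKM in the control, 9607 and 9711 at 45 min and 6032 and 6303 at 90 min, with no overlap between the groups. Their share of all FPKM in a library was 0.51% in the controls, 1.01% and 0.99% at 45 min, and 0.66% at 90 min. The sum of all FPKM was not equal across these libraries, from 0.92 to 1.47 M over the 6.

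At 45 min 2 members rose and 0 fell (limma), beside 11.2% of all genes that rose. The median log2 change was 0.32, against 0.04 over all genes. RSM10, a small subunit protein with a bacterial counterpart, had 115 FPKM in both controls and 227 and 238 at 45 min, a log2 change of 1.01 ± 0.05 (SE). Without the second 45 min replicate it was 0.98, and the count was 1. MRP8 had 137 and 141 FPKM in the controls, 395 and 431 at 45 min and 299 and 296 at 90 min. Its log2 change was 1.56 ± 0.06 at 45 min and 1.09 ± 0.06 at 90 min (limma, adjusted p = 3.32e-07 and 1.51e-06).

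With adjusted p alone and no minimum change, 47 members were higher and 4 lower at 45 min, beside 37.7% and 33.9% of all genes. After MRP8 and RSM10, the largest changes at 45 min were those of RSM19 (0.85) and MRPL16 (0.71). The lowest were RSM26 (-0.65), MRPL11 (-0.36), MRPS35 (-0.18) and MRPL20 (-0.13).

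At 90 min 1 member rose, MRP8, and 3 fell, beside 18.2% and 16.8% of all genes, and the median log2 change was -0.38. RSM26, a small subunit protein known only from mitochondria, had 105 and 115 FPKM in the controls, 69.9 and 69.7 at 45 min and 32.5 and 34.7 at 90 min. It was lower at each time, and its log2 change at 90 min was -1.68 ± 0.07 (SE; limma, adjusted p = 3.58e-07). MRPL20 had 135 and 141 FPKM in the controls and 64.4 and 64.8 at 90 min (-1.08), and MRPL11, the counterpart of a stalk protein, had 87.9 and 86.6 against 40.7 and 41.6 (-1.07). MRPL19 followed with -0.94. The highest after MRP8 were RSM22 (0.63), RSM19 (0.54) and MRP20 (0.46). RSM22 had 34.1 and 31.6 FPKM in the controls, 31.8 and 31.4 at 45 min and 49.6 and 53.4 at 90 min. With adjusted p alone, 8 members were higher and 46 lower at 90 min, beside 40.4% and 38.2% of all genes.

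From 45 to 90 min 8 members fell and 0 rose, beside 4.69% of all genes that fell, with a median log2 change of -0.70. These were MRP2, MRPL31, MRPL35, MRPL38, MRPL7, MRPS8, RSM25 and RSM26. MRPL31 changed most, from 186 and 183 FPKM at 45 min to 68.2 and 69.4 at 90 min. With adjusted p alone 64 were lower and 2 higher, beside 30.1% and 31.4%. The comparisons at 45 and 90 min share their controls, and the comparison between the times shares libraries with both.

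The cytosolic ribosomal protein genes behaved otherwise in the same libraries. Of 136 tested, 132 fell at 45 min with a median log2 change of -2.42. The share of all genes beside this count is at most 33.9%, the share lower without a minimum change. With adjusted p alone and no minimum change, 134 were lower at 45 min, beside 33.9% of all genes. At 90 min 134 passed the test with the minimum change as lower, beside 16.8% of all genes, with a median of -3.92. The difference from the mitochondrial set was not itself tested.

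**Figure D5:**
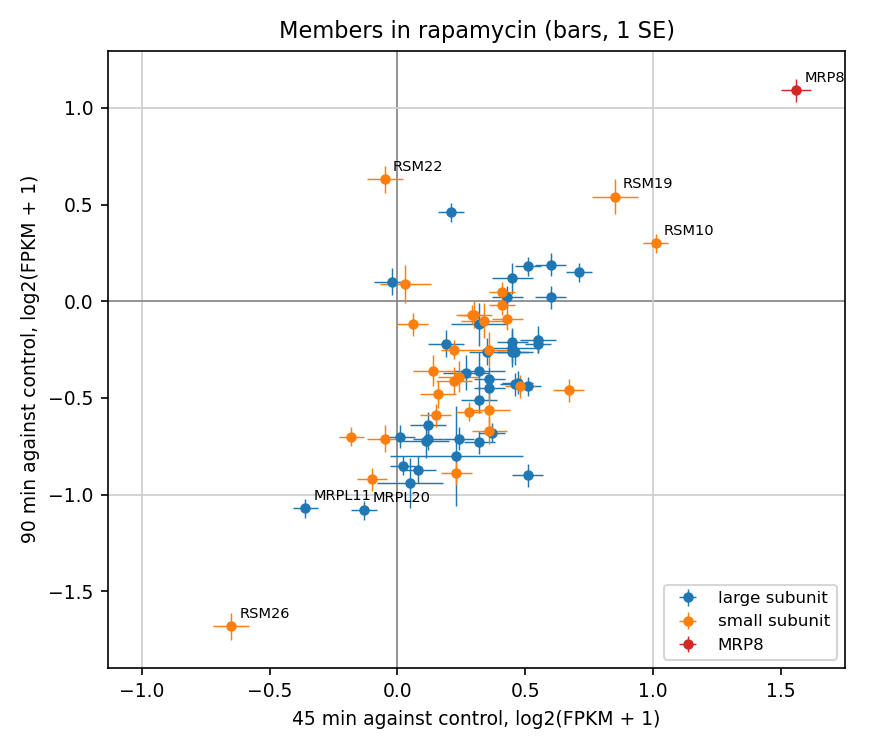
Log2(FPKM + 1) change of each member at 45 min (x axis) and 90 min (y axis) in rapamycin against the same control, with bars of 1 SE and colours for the large subunit, the small subunit and MRP8. Most members lie right of 0 and below 0; MRP8 lies at 1.56 and 1.09, and RSM26 at -0.65 and -1.68.

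For 5 members, a dubious gene on the other strand overlaps the member and limits the values: MRP4, MRPL38, MRPL51, MRPL9 and RSM7. In the cycle table the overlapping gene was listed at a level like the member's for all but MRP4, such as 439 FPKM on average beside 450.0 for MRPL51 and 379 beside 360.0 for MRPL38. In the rapamycin table it was listed near 0, and MRPL51 and MRPL38 averaged 22.6 and 5.17 FPKM. The sources used here do not say how reads in such overlaps were counted. Over all 68 members the Pearson r between the cycle mean and the rapamycin control (both log2) was 0.45, and over 63 without these 5 it was 0.86. The rapamycin counts without them were 2 higher and 0 lower at 45 min, and 1 higher and 3 lower at 90 min, the same as with them. From 45 to 90 min 7 fell without them, against 8 with them. MRPL38 made the difference, with 8.35 and 5.5 FPKM at 45 min and 2.39 and 3.33 at 90 min.

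Chromatin accessibility near the members was given for 66 of 68, without MRP13 and MRPL10, as the authors' normalized signal per gene among 5193 genes. The columns show the genotype but neither phase nor replicate, so each genotype was described over its 12 libraries, without a test. The median log2 difference between arp5∆ and wild type was -0.09 over members and -0.02 over all genes. The 12 libraries of each genotype did not overlap for 8 members that were higher and 6 that were lower in arp5∆, 21.2% of members beside 20.0% of all genes. The members were thus near the background. MRP10, a small subunit protein, was lowest against wild type, with a median of 334 (316 to 376) in wild type and 192 (156 to 244) in arp5∆. MRPL38, a large subunit protein, was highest, with 156 (125 to 183) and 287 (261 to 314).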

How the data were processed

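RNA values are the FPKM that the authors deposited, in 1 table for the cycle and 1 for rapamycin, and accessibility is the authors' deposited normalized signal per gene. The submitters' processing notes name Bowtie2, DESeq2, Picard and the build sacCer3, without versions; the counting of reads and its use of strand are not given in the sources used here. Changes are relative to the authors' scaling. Low FPKM fell on whole multiples of 1 read for 96.0% to 98.7% of values per cycle library and 96.1% to 97.3% per rapamycin library (tolerance 0.1 of a read; 300 low values per library), which gave the depths.

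Log2(FPKM + 1) was tested with limma 3.58.1 (R 4.3.3) with a variance trend, within each table, on all genes that averaged 1 FPKM or more (6510 and 6333), with Benjamini-Hochberg adjustment over all of them. A call needed an adjusted p under 0.05 and at least 1 on the log2 scale. This scale understates changes of low genes. The cycle was fitted as 12 groups of 2 libraries, the whole-cycle comparison on 12 means with phase as a block, and rapamycin as 3 groups. The tests were checked on simulated data. Alternatives were a pseudocount of 0.1, no filter, quantile normalization, no trend, no minimum change, a replicate block, and leaving out each library or phase. The steps within wild type and the moved phases were chosen after seeing the data.

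Members named with values were the highest and lowest by level, range, genotype difference and rapamycin change, and those with an uncommon peak or a failed call that over 90% of members made; others were named after their values were seen. The members, lists and tests were chosen with earlier results of these data known.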

Additional observations from a re-analysis of the deposited data

Results flagged for a closer look

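All 68 members had a course over the phases that differed between wild type and arp5∆, by the test of the interaction of genotype and phase itself, beside 74.0% of all genes. The result is listed because the difference between the 2 cultures, 1 of each genotype, changed with the labelled phase, with a median log2 difference of -1.82 at RB late and 1.12 at OX mid. Cytosolic ribosomal protein genes passed the same test in 138 of 138, and went the other way at these phases, with medians of 1.28 and -2.24. Whether the strains were sampled at the same physiological stage under the same label was not tested.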

How the results depend on the processing

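Counts of members called stayed within 1.5 times the reported value under every alternative run except the following. With no minimum change, the counts were 65 at RC start, 62 at RC mid, 68 at OX mid and 61 at OX late between genotypes, and 51, 54 and 66 for rapamycin at 45 min, at 90 min and between the times. Without the second 45 min replicate the 45 min count was 1, since RSM10 fell short. Leaving out each library in turn gave 68 for cycling in wild type, 59 to 61 in arp5∆, 68 for the interaction, 29 to 33 at RC start, 36 at RC mid, 40 to 42 at OX mid, 6 to 10 at OX late, 49 to 54 at RB start and 66 at RB late. It gave 66 to 67 for the step into OX late, 57 to 58 for the step out of RC start, 1 to 2 at 45 min, 4 to 5 at 90 min and 6 to 10 between the times. Quantile normalization gave 20 at RC start and 57 at OX mid, and moved the median of all genes at RC start from 0.01 to -0.12 (log2).

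Over the cycle the count was 0 under every alternative, also with the arp5∆ series moved ahead by 2 or 3 phases. Without OX mid the difference turned to -0.04 for MRP8, -0.05 for MRPL4 and -0.16 for MRPL11, and without RC mid to -0.21 for MRPL11; the cause was not tested. The differences between A and B correlated weakly from group to group, with r from -0.12 to 0.19. A low r cannot exclude that the letters pair libraries across groups. The replicate block changed no count by over 1.5 times, with 60 called for cycling in arp5∆ and 66 at RB late, and gave 0 over the cycle. The depth behind MRPL38 in rapamycin, 10 reads at the least, limits its fold changes.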

Other observations

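Genes that work with the mitochondrial ribosome mostly followed the members. Of 8 tested mitochondrial ribosomal proteins with other names, 7 were highest at RB late in wild type, and SWS2, a small subunit protein, was highest at RC start. All 8 rose from OX mid to OX late, beside 12.3% of all genes, and all 8 were lower at RB late in arp5∆, beside 10.9% of all genes, with a median log2 difference of -1.73. Of 12 mitochondrial translation factors, 10 were highest at RB late and 8 fell there in arp5∆, beside the same 10.9% of all genes. Of 13 mitochondrial aminoacyl-tRNA synthetases, which charge tRNAs with amino acids, 11 were highest at RB late. In arp5∆ 11 of them fell there, again beside 10.9%. The share of all genes highest at RB late was not counted. Of the factors for mitoribosome assembly and rRNA, 2 of 7 were called as cycling in wild type, beside 62.1% of all genes. Their median range in wild type was 0.81 on the log2 scale.

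Of 8 regulators linked to mitochondrial gene expression, 6 were called as cycling in wild type, beside 62.1% of all genes. In arp5∆ 2 were called (HAP4 and HAP5), beside 32.3% of all genes. With only 8 genes, both counts were near the shares of all genes. In wild type 4 of the 8 were highest at RB late (PUF3, HAP5, RPO41 and MTF1). HAP1 was highest at RC mid (45.5 FPKM on average) and lowest at RB start (16.9), HAP2 was highest at RC start (84.6) and HAP3 at OX late (186). PUF3, whose product binds transcripts of many nuclear genes for mitochondrial proteins, had a mean of 12.4 FPKM at RC mid and 28.4 at RB late in wild type, and its highest mean in arp5∆ was 25.7 at OX mid, with a range over the arp5∆ phases of 0.75 on the log2 scale, under the minimum of 1 for a call. HAP4, the activating subunit of a regulator of respiratory genes, was highest at RB start in wild type (357 FPKM) and at RC mid in arp5∆ (264). RPO41, the mitochondrial RNA polymerase, was highest at RB late in wild type (66.8) and at OX mid in arp5∆ (61.8), with a range there of 0.82, also under the minimum.

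EHD3, which encodes a protein of the small mitoribosomal subunit that is also an enzyme, was listed between 0 and 0.127 FPKM in all 12 groups of the cycle (CEN.PK background) and between 50.7 and 70.4 FPKM in the 6 rapamycin libraries (BY4741). The lowest value of a member in any library was 2.39 FPKM, for MRPL38 at 90 min.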
